A study of Rattus norvegicus with 18 samples.

Results

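Old muscle was compared with young muscle in rats that could eat at will. The 12 libraries compared, of 18 in the series, came from gastrocnemius, the large calf muscle, of male Brown Norway rats (substrain BN/SsNOlaHsd). Rats of 6 months (young AL, replicates 1 to 6) were set against rats of 28 months (old AL, replicates 7 to 12), with 1 rat per library and 6 libraries per group. All were fed ad libitum and housed singly from young adulthood, and age is the labelled difference between the groups. Whole muscle was extracted, so a lower share of a cell type in the tissue and a lower miRNA content per cell cannot be told apart. Known miRNAs, meaning entries that are not predicted candidates, whose counts over the 12 libraries came to 10 or more were taken as members. Of 763 known miRNAs in the table, 78.4% met this rule, 82 had 1 to 9 counts and 83 had none. Replicate numbers identify a library, 1 to 6 being young AL and 7 to 12 old AL. The prefix rno- is left out of the names below.

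A miRNA gene is transcribed as a hairpin, and each side, or arm, of the hairpin (5p and 3p) can yield a mature miRNA. The mature strand pairs with target mRNAs mainly through its seed, bases 2 to 8 from the 5′ end, and lowers their translation or stability, so miRNAs with the same seed form a family with overlapping targets. Many miRNA genes lie side by side in genomic clusters and can share a primary transcript. In adult striated muscle miR-1, miR-133 and miR-206 dominate. The imprinted Dlk1-Dio3 region carries a very large cluster that is expressed from the maternal chromosome and is highly active in development.

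Libraries held 34940346 to 82959871 counts, and known entries took 73.3 to 80.0% of them. The known miR-1 entries alone took 44.7% (old AL replicate 7) to 61.6% (old AL replicate 11), and the TMM factors that adjust for such differences in composition ran from 0.599 in old AL replicate 11 to 2.16 in old AL replicate 7. Spearman correlations of log2 CPM were 0.832 to 0.904 within groups and 0.812 to 0.897 between them. Old AL replicate 7 stood apart by its TMM factor and old AL replicate 8 by its miR-142, epithelial and Dlk1-Dio3 miRNAs (values below), and counts of calls without them are given. Muscle identity was plain in every library, as the 14 tested entries of the striated muscle list (miR-1, miR-133, miR-206, miR-208, miR-499 and miR-3571) summed to at least 487729 CPM in young AL and at least 254886 CPM in old AL. CPM stands for counts scaled to a library of 1000000 after TMM scaling. Some reads may be counted more than once in these sums and in the share of miR-1. In RefSeq miR-3571 lies on the strand opposite miR-1, and miR-133c on that opposite miR-133a.

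More known miRNAs were slightly higher than lower in old AL, but the calls leaned the other way. Of the known miRNAs tested, 334 had a log2 fold change (old AL over young AL) above 0 and 264 below, with a median of 0.06 and quartiles of -0.35 and 0.39. At an adjusted p of at most 0.05 in edgeR and a fold of at least 1.5, 24 known miRNAs were called, 7 higher and 17 lower in old AL. No predicted candidate was called, so calls made up 3.28% of all 732 entries tested, 0.956% higher and 2.32% lower. An unadjusted p under 0.05 was reached by 68 known miRNAs that were higher and 77 that were lower. In 25 known miRNAs the 6 old AL libraries did not overlap the 6 young AL libraries (3.55% of all entries tested did so), with old AL above in 6 and below in 19, and 16 of the 25 were called. Of the 24 called, 10 averaged under 1 CPM, 12 between 1 and 100 CPM, and 2, miR-22-3p and miR-140-3p, over 100 CPM. The plot of level against change shows that the abundant muscle miRNAs lay near 0 and that most of the largest fitted changes were found at low levels, with miR-122-5p and miR-122b (means of 141.4 and 64.0 CPM) as exceptions.

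**Figure D1:**
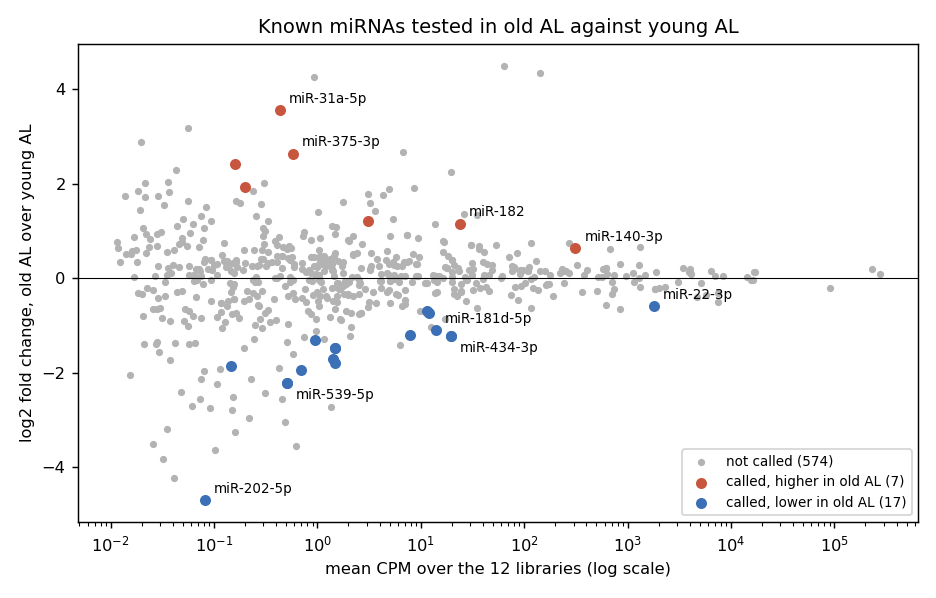
Log2 fold change of old AL over young AL (y) against mean CPM over the 12 libraries (x, log scale) for the known miRNAs tested, each a point. The 7 miRNAs called higher (red) and 17 called lower (blue) lie mostly under 100 CPM, with miR-140-3p and miR-22-3p the only called miRNAs above it.

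The number of calls depended on the fit. With predicted candidates left out before fitting, edgeR called 53 known miRNAs (8.86% of those tested), 19 higher and 34 lower, and these included all 24. DESeq2 on all entries called 70 known miRNAs, 31 higher and 39 lower, again including all 24, against 11.5% of all 732 entries. Leaving out a library changed the edgeR count to 9 (replicate 3 or 12), to 10 (replicate 4, 5, 9 or 11) or to 15 (replicate 2). It was 20 without replicate 7, 20 without replicate 8, and 22 without both, of which 15 were among the 24. With library totals alone in place of TMM the median of known miRNAs moved to 0.22 and edgeR called 0, with 116 of all entries at an unadjusted p under 0.05.

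The sequences below, from the RefSeq table of GRCr8, were matched by name for 546 known miRNAs, with 52 left unmatched, and for 22 of the 24 called, which hold 21 distinct seeds. The labels name the older build Rnor_6.0 for the counts, so only chromosomes and the order of genes are taken from RefSeq. Capitals mark the seed. The first set is the miR-181 family, whose 4 members share the seed ACAUUCA and differ in the rest, and of which only the last pair was called.
miR-181a-5p: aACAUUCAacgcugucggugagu
miR-181b-5p: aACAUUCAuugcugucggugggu
miR-181c-5p: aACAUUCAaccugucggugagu
miR-181d-5p: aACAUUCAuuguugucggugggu

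The second set shows why several called entries are not independent. Each name is followed by an entry annotated on the opposite strand of the same place, whose sequence is its reverse complement over 22 bases, or over 20 bases for the miR-24-1-5p pair.
miR-539-5p: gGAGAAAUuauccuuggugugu
miR-3576: aCACACCAaggauaauuucucc
miR-434-3p: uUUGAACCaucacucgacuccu
miR-3543: cAGGAGUCgagugaugguucaaa
miR-369-5p: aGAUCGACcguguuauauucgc
miR-3578: gCGAAUAUaacacggucgaucu
miR-24-1-5p: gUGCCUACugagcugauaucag
miR-3074: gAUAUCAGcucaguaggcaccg
The mean CPM of the pairs had ratios of 0.994 to 1.04, so the reads of these pairs could not be told apart in the deposited counts, and each pair is described once. With entries joined whose counts lay within 10% or 2 counts of each other in every library, the 24 called entries form 21 sets of counts, the miR-24-1-5p pair being just outside this tolerance.

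The third set holds miRNAs called higher in old AL, among them the most abundant (miR-140-3p) and that with the largest fold (miR-31a-5p), and miR-22-3p, the most abundant miRNA called lower. No seed is shared among them.
miR-31a-5p: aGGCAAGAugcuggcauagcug
miR-375-3p: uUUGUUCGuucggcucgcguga
miR-212-3p: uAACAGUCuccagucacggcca
miR-182: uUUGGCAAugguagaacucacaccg
miR-140-3p: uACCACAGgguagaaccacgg
miR-22-3p: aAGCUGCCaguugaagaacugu

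Of the 17 miRNAs called lower, 11 lie in the Dlk1-Dio3 region on chromosome 6. The region encodes imprinted maternal transcripts, and its miRNAs fall into a side around the paternally expressed Rtl1 gene (miR-493 to miR-136), called the Rtl1-antisense side here, and a large miR-379 to miR-410 cluster. In the miR-379 to miR-410 list 52 of 54 tested miRNAs had a lower fitted value in old AL, 7 were called lower and none higher, and the median log2 fold change was -0.60. On the Rtl1-antisense side 20 of 22 were lower, 4 were called lower, and the median was -0.73. Together 11 of 76 tested miRNAs were called lower against 2.32% of all entries, and 94.7% of them lay below 0, against 36.8% of the known miRNAs outside the region, whose median was 0.15. Among the 11, miR-3576, miR-3578 and miR-3543 share the counts of miR-539-5p, miR-369-5p and miR-434-3p. By the tolerance given above, 13 of the 54 and 4 of the 22 had nearly the same counts as another entry. These tallies therefore count some reads more than once. The list was written with earlier results of these data known, so its direction is no independent evidence. Summed over the 76 miRNAs, the level was 254 CPM at the lowest, 286 at the median and 346.25 at the highest in young AL, and 90.7, 215.2 and 235 CPM in old AL. Every old AL library thus lay below every young AL library, and the lowest was old AL replicate 8. Without that library the medians were -0.41 and -0.55.

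Levels in the region rested on modest counts. miR-539-5p, with the shared counts of miR-3576, had 0.491, 0.850 and 1.13 CPM (lowest, median, highest) in young AL and 0.105, 0.179 and 0.279 CPM in old AL. These are 16 to 66 counts per young library and 7 to 22 per old library, with no overlap between groups, and edgeR gave a log2 fold change of -2.22 (SE 0.303, adjusted p = 0.00341). miR-369-5p, shared with miR-3578, had 1.70, 2.15 and 2.85 CPM in young AL and 0.452, 0.809 and 0.992 CPM in old AL, again without overlap. Its log2 fold change was -1.49 (SE 0.220, adjusted p = 0.00341 from edgeR). In the middle of the same cluster, miR-376b-5p had 0.670, 1.05 and 1.56 CPM in young AL against 0.157, 0.253 and 0.454 CPM in old AL. It fell by 1.96 on the log2 scale (SE 0.343, adjusted p = 0.0116 from edgeR), and its relative miR-376a-5p, with 0.168, 0.246 and 0.285 CPM against 0.0149, 0.0598 and 0.116 CPM, fell by 1.85 (SE 0.432, adjusted p = 0.0376 from edgeR). Both were free of overlap, although miR-376a-5p rested on 1 to 9 counts per old library. miR-410-3p, the last gene of the cluster, had 0.975, 1.29 and 2.03 CPM in young AL and 0.250, 0.524 and 0.838 CPM in old AL (log2 fold change -1.31, SE 0.290, adjusted p = 0.0353 from edgeR).

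On the Rtl1-antisense side the called miRNAs were more abundant. miR-434-3p, shared with miR-3543, had 15.9, 28.4 and 33.01 CPM in young AL and 5.84, 12.6 and 13.9 CPM in old AL, a log2 fold change of -1.22 (SE 0.235, adjusted p = 0.0213 from edgeR). The other arm of that hairpin, miR-434-5p, had 5.75, 10.6 and 17.9 CPM against 3.28, 4.38 and 7.21 CPM and fell by 1.198 on the log2 scale (SE 0.265, adjusted p = 0.0353 from edgeR), so both arms were called, the 3p arm without overlap and the 5p arm with. miR-136-5p, which has no sequence in the RefSeq table under its name, had 1.28, 1.85 and 4.21 CPM in young AL and 0.345, 0.688 and 0.907 CPM in old AL (log2 fold change -1.71, SE 0.340, adjusted p = 0.0232 from edgeR). The most abundant miRNA of the region behaved otherwise. miR-127-3p had 56.2, 83.2 and 127 CPM in young AL and 34.2, 80.8 and 96.8 CPM in old AL, with a log2 fold change of -0.19 that did not pass the test (SE 0.263, adjusted p = 0.748 from edgeR).

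With any 1 library left out, edgeR called miR-539-5p, miR-3576, miR-369-5p, miR-3578, miR-376b-5p, miR-434-3p and miR-3543 each time, with adjusted p of at most 0.0498. The call of miR-136-5p was lost without replicate 3 or 12 (adjusted p up to 0.0600 from edgeR). That of miR-410-3p was lost without replicate 2, 3, 4, 5, 11 or 12 (up to 0.0820). Those of miR-376a-5p and miR-434-5p were lost in 10 and 9 of the 12 fits (up to 0.0855 and 0.0800), and were kept without replicate 10 or 12 for the former and without replicate 1, 6 or 7 for the latter. Under library totals alone all 11 lost their call and stayed below 0.

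**Figure D2:**
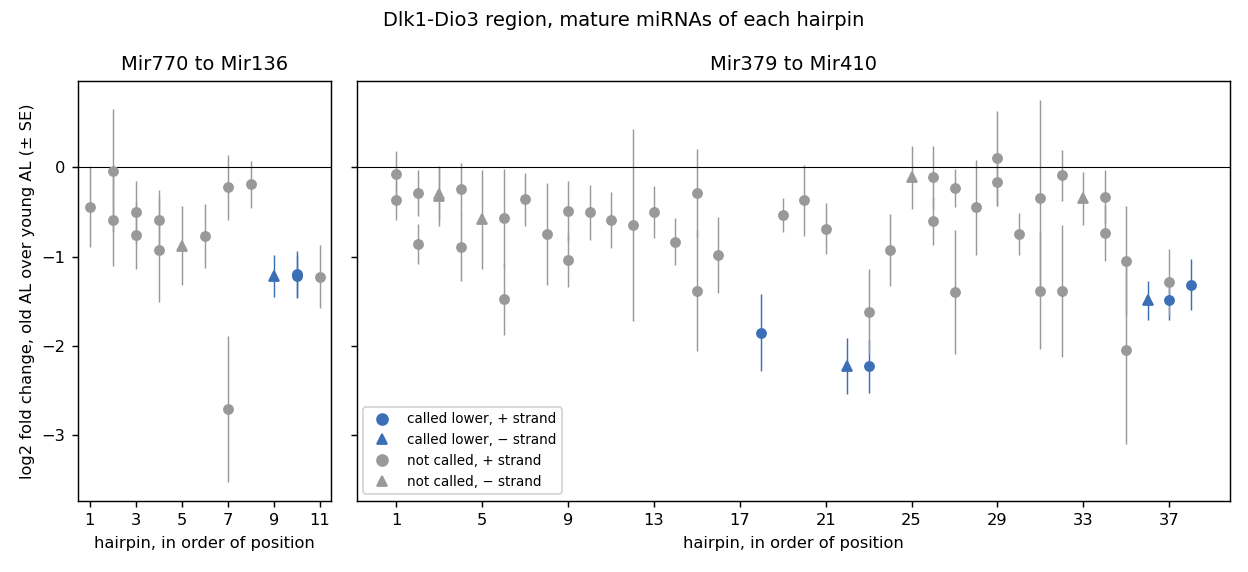
Log2 fold change of old AL over young AL (y, bars are SE) for the mature miRNAs of 2 RefSeq runs of hairpins in the Dlk1-Dio3 region, in order of position along chromosome 6 (x). Circles lie on the plus strand and triangles on the minus strand, and called miRNAs (blue) sit near the end of the left run and in the middle and at the end of the right run. Nearly all points lie below 0; members without a hairpin and arm in RefSeq, such as miR-376b-5p and miR-136-5p, are not drawn.

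The fitted changes varied along the region, and a difference by position was not tested. In the ordered plot, the first 9 hairpins of the large cluster, from miR-379 to miR-329, had log2 fold changes of -1.48 (miR-380-3p) to -0.07 (miR-379-3p) and no call, while the called miRNAs lay in the middle (miR-376a-5p and the miR-539 pair) and at the far end (miR-369-5p and miR-410-3p). The nearest to a call among the rest was miR-411-5p, which had 17.4, 21.7 and 27.9 CPM in young AL and 6.29, 12.4 and 15.2 CPM in old AL. These groups did not overlap, yet its log2 fold change of -0.86 did not pass over all entries (SE 0.222, adjusted p = 0.0616 from edgeR) and was called in the fit of known miRNAs alone (adjusted p = 0.0194 from edgeR). Other arms in the region had values in the same direction. miR-539-3p stood at -1.62 (SE 0.479, adjusted p = 0.0879 from edgeR) and miR-369-3p at -1.29 (SE 0.376, adjusted p = 0.0879), and both were called when known miRNAs alone were fitted, whereas miR-376b-3p stood at -0.47 (SE 0.344, adjusted p = 0.442). miR-154-3p at 0.10 (SE 0.537) and miR-665 at 0.06 (SE 0.821) were among the 4 members above 0, and both were at or under 0.123 CPM in every library.

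**Figure D3:**
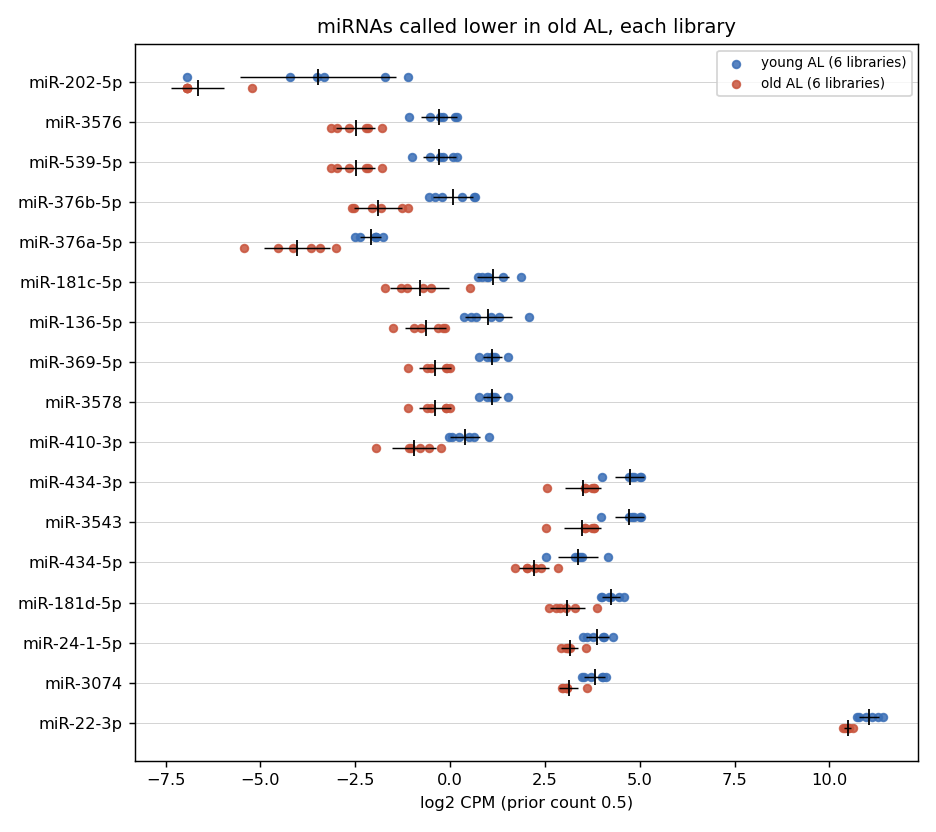
Log2 CPM (x, prior count 0.5) of the 17 miRNAs called lower in old AL, with a point per library (young AL blue, old AL red), a tick at the group mean and a bar of 1 SD. The old AL points lie to the left of the young AL points, without overlap in 13 of the 17.

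Within the miR-181 family, the rarer members fell and the abundant members did not pass the test. The family is known from work on lymphocytes and muscle differentiation, and in RefSeq the hairpins of miR-181c and miR-181d lie next to each other on chromosome 19. miR-181d-5p had 15.9, 18.6 and 24.03 CPM in young AL and 6.05, 7.86 and 14.8 CPM in old AL, without overlap (log2 fold change -1.11, SE 0.223, adjusted p = 0.0232 from edgeR). miR-181c-5p had 1.65, 1.98 and 3.66 CPM in young AL and 0.297, 0.526 and 1.44 CPM in old AL, also without overlap (log2 fold change -1.81, SE 0.377, adjusted p = 0.0280 from edgeR). In both the highest old AL library was replicate 7. The passenger arm miR-181c-3p had 1.24, 1.29 and 1.54 CPM against 0.299, 0.590 and 1.04 CPM, free of overlap, with a log2 fold change of -1.12 and an adjusted p of 0.0616 from edgeR (0.0313 and called with known miRNAs alone), and the summed level of the 3 tested miRNAs of this pair of hairpins had a median of 21.7 CPM in young AL against 8.82 CPM in old AL.

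miR-181a-5p and miR-181b-5p, which carry the same seed and are encoded elsewhere, made up most of the family. miR-181a-5p had 259, 362 and 554 CPM in young AL and 246, 328 and 416 CPM in old AL (log2 fold change -0.28, SE 0.194, adjusted p = 0.405 from edgeR). miR-181b-5p had 77.9, 123.98 and 151.7 CPM against 81.2, 117 and 154 CPM (log2 fold change -0.02, SE 0.199, adjusted p = 0.971 from edgeR). The groups overlapped in both. The summed level of the whole family was 379, 527 and 759 CPM in young AL and 365.5, 459 and 602 CPM in old AL, so the overlap at the level of the seed family was nearly complete although 2 of its 4 seed members were called. The call of miR-181d-5p was lost without replicate 4, 5, 9, 11 or 12 (adjusted p up to 0.0711 from edgeR), and that of miR-181c-5p without replicate 3, 4, 5, 9, 10, 11 or 12 (up to 0.0686).

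Outside these groups, 4 miRNAs were called lower. miR-22-3p, an abundant miRNA of striated muscle and heart, had 1698, 2122 and 2718 CPM in young AL and 1303, 1442 and 1575 CPM in old AL. The groups did not overlap, and the log2 fold change was -0.59 (SE 0.134, adjusted p = 0.0353 from edgeR), a fold of 1.501 that barely met the threshold, with -0.47 (SE 0.166, adjusted p = 0.131) for its other arm miR-22-5p. miR-24-1-5p, with nearly the same counts as its opposite-strand partner miR-3074, had 11.4, 15.0 and 19.6 CPM in young AL and 7.57, 8.61 and 11.9 CPM in old AL, with slight overlap (log2 fold change -0.73, SE 0.171, adjusted p = 0.0376 from edgeR). The main product of the miR-24 hairpins, miR-24-3p, is also made from another gene and had 1196, 1433 and 1649 CPM against 1054, 1180 and 1676 CPM (log2 fold change -0.20, SE 0.139, adjusted p = 0.415 from edgeR).

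miR-202-5p, best known from the gonads, was the sparsest called miRNA. It had 0, 0.0856 and 0.452 CPM in young AL and 0, 0 and 0.0189 CPM in old AL, which are 51 counts in all of the young libraries and 2 in the old, both of the latter in replicate 7. The fitted log2 fold change was -4.71 (SE 1.16, adjusted p = 0.0471 from edgeR), and the ratio of young to old counts per scaled library was 32.9, with an exact 95% interval of 8.64 to 279 that covers counting error only. A library at 0 allows up to 3 counts. Its call was kept only without replicate 1 (adjusted p up to 0.118 from edgeR in the other fits with 1 library left out), that of miR-22-3p only without replicate 1, 2 or 8 (up to 0.0876), and those of miR-24-1-5p and miR-3074 only without replicate 1 or 7 (up to 0.0943 and 0.114).

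The miRNAs called higher in old AL came from 7 different hairpins. miR-31a-5p, known from myogenic progenitors, where it targets Myf5, and from epithelia, had 0.0226, 0.0599 and 0.123 CPM in young AL and 0.289, 0.644 and 1.76 CPM in old AL. Each young library held 1 to 7 counts and each old library 12 to 104, and all old libraries lay above all young ones, an 11.8-fold difference (log2 fold change 3.56, SE 0.543, adjusted p = 0.00383 from edgeR). miR-31b, annotated on the opposite strand of the same place, was at 0 to 0.0307 CPM in young AL and 0.0241 to 0.192 CPM in old AL and had a log2 fold change of 3.19 that did not pass (SE 0.903, adjusted p = 0.0854 from edgeR) but did with known miRNAs alone (adjusted p = 0.0174). miR-31a-5p was called with any 1 library left out (adjusted p up to 0.0149 from edgeR).

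**Figure D4:**
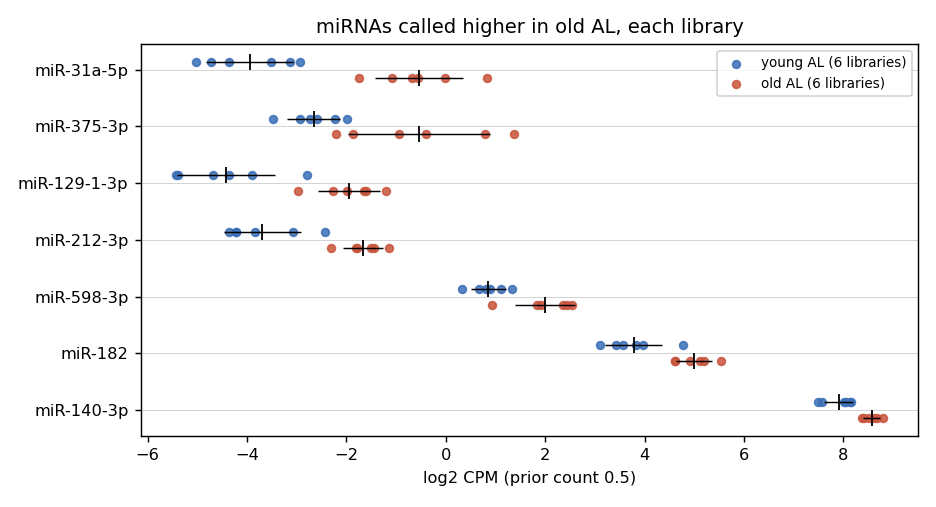
Log2 CPM (x, prior count 0.5) of the 7 miRNAs called higher in old AL, with a point per library (young AL blue, old AL red), a tick at the group mean and a bar of 1 SD. Old AL lies above young AL without overlap for miR-31a-5p, miR-212-3p and miR-140-3p, and miR-375-3p has the widest spread in old AL.

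miR-212-3p, an activity-regulated miRNA of neurons and heart that shares a transcript with miR-132, had 0.0406, 0.0535 and 0.177 CPM in young AL and 0.194, 0.314 and 0.444 CPM in old AL. The groups did not overlap (log2 fold change 1.94, SE 0.419, adjusted p = 0.0347 from edgeR). Its other arm miR-212-5p had a log2 fold change of 1.203 (SE 0.389, adjusted p = 0.105). The more abundant cluster mate miR-132-3p, with 1.22, 1.40 and 2.30 CPM against 1.22, 1.61 and 3.42 CPM, had 0.26 (SE 0.269, adjusted p = 0.635 from edgeR). miR-129-1-3p, a brain miRNA, had 0.0152, 0.0356 and 0.136 CPM in young AL and 0.120, 0.279 and 0.425 CPM in old AL, with 5 of 6 old libraries above all young ones (log2 fold change 2.43, SE 0.549, adjusted p = 0.0353 from edgeR). miR-598-3p, a further miRNA of the neural list, had 1.24, 1.80 and 2.52 CPM against 1.89, 4.44 and 5.82 CPM (log2 fold change 1.21, SE 0.273, adjusted p = 0.0353 from edgeR).

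miR-140-3p, from a hairpin inside the Wwp2 gene that is best known in cartilage, was the most abundant miRNA called higher, with 181, 263 and 287 CPM in young AL and 332, 380 and 446 CPM in old AL. The groups were fully apart (log2 fold change 0.64, SE 0.147, adjusted p = 0.0353 from edgeR). The other arm did not follow it. miR-140-5p had 15.5, 27.1 and 40.3 CPM in young AL and 16.3, 23.3 and 25.1 CPM in old AL, a log2 fold change of -0.29 (SE 0.215, adjusted p = 0.452 from edgeR). Over all hairpins with both arms tested, the arms had the same sign in 147 of 202 pairs.

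miR-375-3p, a marker of pancreatic islet and neuroendocrine cells, had 0.0812, 0.150 and 0.244 CPM in young AL and 0.209, 0.633 and 2.58 CPM in old AL. The old AL values were wide, with replicates 7 and 8 highest, and the log2 fold change was 2.64 (SE 0.615, adjusted p = 0.0376 from edgeR), or 1.38 and no longer called without replicates 7 and 8 (adjusted p = 0.102 from edgeR). miR-182 had 8.59, 13.1 and 27.3 CPM in young AL and 24.3, 32.3 and 46.4 CPM in old AL, where young AL replicate 2 was the only young library to reach the old range (log2 fold change 1.15, SE 0.278, adjusted p = 0.0440 from edgeR). The cluster of miR-183, miR-96 and miR-182, a cluster on chromosome 4 known from sensory organs, had all 4 tested members above 0 with a median of 0.93 and 1 called against 0.956% of all entries. miR-183-5p, with 2.396, 4.98 and 8.91 CPM against 7.38, 9.44 and 12.9 CPM, had 0.92 (SE 0.281, adjusted p = 0.0948 from edgeR) and was called in the fit of known miRNAs alone (adjusted p = 0.0375 from edgeR).

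Apart from miR-31a-5p, these calls were each lost without several libraries. With 1 library left out at a time, miR-212-3p was called in 4 of 12 fits and miR-129-1-3p, miR-598-3p, miR-140-3p, miR-375-3p and miR-182 in 2 of 12 each, with adjusted p of at most 0.0770, 0.0854, 0.0855, 0.0836, 0.0873 and 0.114 from edgeR. The libraries without which a call was kept were replicates 5, 6, 8 and 10 for miR-212-3p, 4 and 10 for miR-129-1-3p, 7 and 8 for miR-598-3p, 6 and 7 for miR-140-3p, 10 and 11 for miR-375-3p, and 2 and 8 for miR-182. The log2 fold changes themselves stayed within 0.57 to 0.69 for miR-140-3p and 1.03 to 1.42 for miR-182.

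Some miRNAs had groups that did not overlap but no call over all entries. Of those given here, miR-122-5p, miR-433-5p and miR-489-3p were called both by edgeR on known miRNAs alone (adjusted p = 0.0448, 0.0203 and 0.0472) and by DESeq2 (adjusted p = 1.1e-05, 0.0124 and 0.0392), and miR-142-5p, to which DESeq2 gave no adjusted p, and miR-196b-5p were called by neither. miR-122-5p, the dominant miRNA of hepatocytes, had 0.579, 7.51 and 41.1 CPM in young AL and 48.8, 198 and 840 CPM in old AL. Old AL was above young AL in every library, but both groups spread widely, and the log2 fold change of 4.36 had an SE of 1.16 (adjusted p = 0.0710 from edgeR). miR-142-5p, a leukocyte miRNA, had 4.31, 7.12 and 8.66 CPM in young AL and 9.07, 10.7 and 138.1 CPM in old AL, the highest in replicate 8 (log2 fold change 2.25, SE 0.745, adjusted p = 0.113 from edgeR). In contrast, miR-196b-5p, from a Hox locus, was tight, with 73.4, 82.7 and 97.6 CPM in young AL and 60.4, 66.1 and 69.1 CPM in old AL, but its log2 fold change of -0.35 lay under the fold threshold (SE 0.103, adjusted p = 0.0879 from edgeR). miR-433-5p with 0 to 4 counts per old library and miR-489-3p with 0 to 6 were also below the young libraries, at -2.70 (SE 0.819, adjusted p = 0.0948 from edgeR) and -1.97 (SE 0.628, adjusted p = 0.105).

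The 4 miRNAs of the imprinted Igf2/H19 locus, which encodes a fetal growth factor and a growth-restraining RNA, all had fitted values above 0, with a median log2 fold change of 1.75. None was called by edgeR over all entries, edgeR on known miRNAs alone called 1, miR-675-5p (adjusted p = 0.0263), DESeq2 called all 4 (11.5% of all entries), and the values fell apart within old AL. miR-483-3p, from an intron of Igf2, had 0.430, 1.81 and 3.18 CPM in young AL and 0.880, 13.0 and 23.4 CPM in old AL (log2 fold change 2.67, SE 0.785, adjusted p = 0.0879 from edgeR). miR-675-5p, from an exon of H19, had 0.708, 0.860 and 1.14 CPM against 0.357, 3.40 and 3.93 CPM (log2 fold change 1.61, SE 0.473, adjusted p = 0.0879 from edgeR). The summed level was 2.98 to 11.0 CPM in young AL. Replicates 7 and 8 of old AL had 6.98 and 3.21 CPM, and its replicates 9 to 12 had 26.7 to 47.1 CPM. Without replicates 7 and 8, a choice made after these values were seen, miR-675-5p had a log2 fold change of 2.00. Replicates 7 and 8 were the old AL libraries with the lowest sums of this locus, so leaving them out favours a higher fitted value. That fit also called miR-675-5p over all entries, which is therefore no further evidence.

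The main muscle miRNAs did not pass the test. miR-1-3p, which promotes muscle differentiation, had 67342, 102446 and 105702 CPM in young AL and 35553, 91017 and 128295 CPM in old AL (log2 fold change -0.21, SE 0.271, adjusted p = 0.735 from edgeR). Other miR-1 entries were more abundant and lay above 0. miR-3571, with a mean of 277900 CPM, had 0.08 (SE 0.314, adjusted p = 0.928 from edgeR). miR-1b, with a mean of 228959 CPM, had 0.20 (SE 0.336, adjusted p = 0.801 from edgeR). miR-133a-3p, from the same transcripts as miR-1-3p, had 9075, 16746 and 23239 CPM against 12002, 16376 and 24622 CPM (log2 fold change 0.12, SE 0.274, adjusted p = 0.873 from edgeR). miR-206-3p, enriched in regenerating and slow fibers, had 4902, 7591 and 13615 CPM against 4301, 7347 and 17806 CPM (log2 fold change 0.04, SE 0.345, adjusted p = 0.971 from edgeR). In each, the old AL range enclosed most of the young AL range. Of the 14 tested entries of the striated muscle list 10 lay above 0 and 4 below, 0 were called by edgeR, DESeq2 or the fit of known miRNAs alone, and 0 had an unadjusted p under 0.05. By the tolerance given above, 5 of the 14 had nearly the same counts as another entry. miR-101a-3p, the miRNA that served as RT-qPCR reference, had 434, 545 and 1014 CPM in young AL and 349, 645 and 860 CPM in old AL (log2 fold change 0.08, SE 0.247, adjusted p = 0.913 from edgeR).

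Median log2 fold changes of seed families ran from -1.33 to 0.68. Of 13 families with at least 3 tested members in RefSeq, 8 had a median above 0. The lowest medians were -1.33 for the miR-34 seed GGCAGUG (4 members, values of -2.57 to 0.85) and -0.69 for the miR-181 seed. In edgeR over all entries the miR-181 family alone held calls. The fit of known miRNAs alone, which called 8.86% of those tested, also called miR-30e-5p lower (adjusted p = 0.0407 from edgeR). DESeq2, which called 11.5% of all entries, also called 1 member each of the miR-34, miR-30, miR-29, miR-17 and miR-92 seeds. The let-7 family, which restrains proliferation, had 8 of 9 members of the seed GAGGUAG above 0 with a median of 0.16 and values of -0.21 to 0.22. The miR-29 seed AGCACCA, known for targeting collagen transcripts, had all 3 members above 0 with a median of 0.38, and the miR-17 and miR-92 seeds of the proliferation-linked miR-17 to miR-92 clusters had medians of 0.56 and 0.68. None of these was called by edgeR over all entries, against 3.28% of all entries. The shift of the median of all known miRNAs under library totals, to 0.22, is as large as several of these values.

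The RefSeq gene order also brought out 3 runs of hairpins on the X chromosome that had the lowest medians of all runs described. They were chosen here after their values were seen. The runs are Mir743b to Mir883, Mir471 to Mir465 and Mir3585 to Mir547, X-linked rodent miRNAs known mainly from testis and germ cells. All 20 tested members had fitted values below 0, and their median was -2.74 on the log2 scale, with values from -4.24 to -1.36. None was called by edgeR over all entries, 5 were called in the fit of known miRNAs alone (8.86% of entries) and 16 had an unadjusted p under 0.05. The groups overlapped strongly. The summed level was 0.487 CPM in young AL replicate 1, 5.51 in replicate 2, 8.93 in replicate 3, 14.9 in replicate 4, 14.1 in replicate 5 and 1.76 in replicate 6. In old AL it was 2.13 CPM in replicate 7, 2.60 in replicate 10 and 0.366 to 0.506 in the other libraries. Young AL replicates 1 and 6 thus lay within the old AL range, and young AL replicates 2 to 5 lay above it. The most abundant member, miR-741-3p, had 0.0609, 2.49 and 4.43 CPM in young AL and 0.0666, 0.0956 and 1.02 CPM in old AL (log2 fold change -2.73, SE 1.02, adjusted p = 0.151 from edgeR).

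The Mir34c to Mir34b hairpins, active in testis and ciliated cells, and miR-449a-5p, which has the same seed GGCAGUG, were also high in part of the young libraries. The 4 tested miRNAs of the Mir34c to Mir34b hairpins summed to 26.8 CPM in young AL replicate 4, 23.8 in replicate 5, 8.60 in replicate 2 and 1.72 to 3.63 in the other young libraries, against 2.81 to 7.34 CPM in old AL. miR-34c-5p had a log2 fold change of -1.41 (SE 0.683, adjusted p = 0.237 from edgeR) and miR-449a-5p of -2.57 (SE 0.789, adjusted p = 0.0963). miR-202-5p was highest in the same young AL replicates 4 and 5, at 0.452 and 0.295 CPM. The part of these libraries in the difference was not tested beyond the fits that leave out 1 library.

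**Figure D5:**
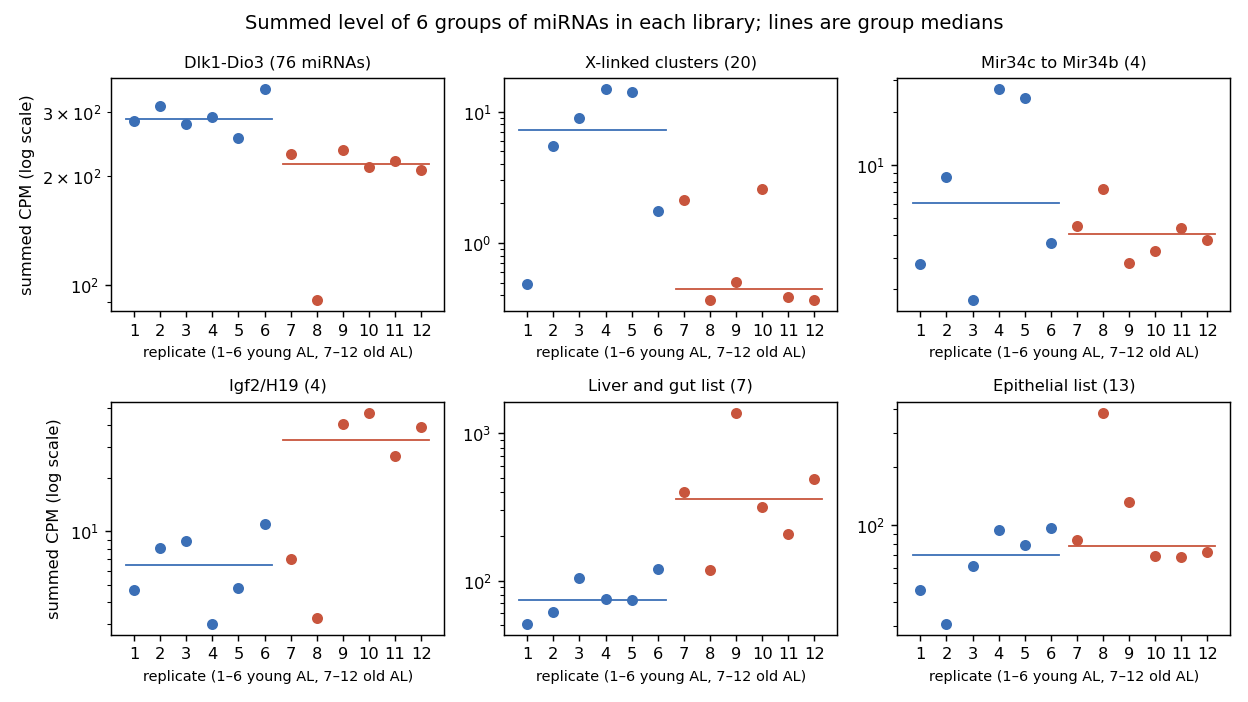
Summed CPM (y, log scale) of 6 groups of miRNAs in each of the 12 libraries (x, replicate, young AL blue, old AL red), with lines at the group medians. Dlk1-Dio3 is lower in all old AL libraries, the X-linked and Mir34c to Mir34b hairpins are high in young AL replicates 4 and 5, Igf2/H19 is high in old AL replicates 9 to 12, and the epithelial list is highest in old AL replicate 8.

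Lists of miRNAs that mark other tissues had more members above than below 0, as had all known miRNAs (334 above and 264 below), with few calls. The part of these lists in the differences above was not tested. The vascular list (4 above, 3 below) and the fibroblast list (2 above, 1 below) had medians of 0.026 and 0.032, against 0.058 for all known miRNAs, and 0 called. The liver and gut list (miR-122, miR-192 and miR-194 in the counts) had 6 of 7 members above 0 and 0 called. The fit of known miRNAs alone called 3 (8.86% of those tested) and DESeq2 called 3 (11.5% of all entries), all of them miR-122 entries. The list summed to 50.6 to 120 CPM in young AL and 118 to 1382 CPM in old AL. In the neural list (27 tested, among them miR-9, miR-124, miR-129 and miR-598) 20 were above 0, with a median of 0.77. Of the 27, 2 were called higher, against 0.956% of all entries, and 5 with known miRNAs alone, against 8.86% of those tested. The sum of the list was lower in old AL, at 516 to 812 CPM against 662 to 1144 CPM. It was mostly that of miR-128-3p, with a mean of 620 CPM and a log2 fold change of -0.56. The epithelial list (miR-200 family, miR-203 and miR-205) had 13 of 13 above 0, 0 called and a median of 1.33, and summed to 30.7 to 96.4 CPM in young AL, to 384 CPM in old AL replicate 8 and to 68.4 to 132 CPM in the other old libraries. These 13 are not all independent, as miR-203a-3p (1.34) and miR-203b-5p (1.35) come from hairpins on opposite strands of the same place. Some were near the floor, such as miR-200b-5p with a mean of 0.0288 CPM (log2 fold change 1.73, SE 1.02). With 1 library left out, the value of miR-203a-3p was 0.63 at the lowest. The leukocyte list (miR-142, miR-150, miR-155 and miR-223) had 8 of 8 above 0 and 0 called, and summed to 123 to 181.6 CPM in young AL, 606 CPM in old AL replicate 8 and 114 to 165 CPM in the others. Its median of 0.78 became -0.07 without old AL replicate 8. The erythroid list (miR-144, miR-451 and miR-486) had 4 of 5 above 0, 0 called (1 by DESeq2, against 11.5% of all entries) and a median of 0.62.

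Inflammation-related miRNAs had values above 0 in all 8 tested, with a median of 0.46 and 0 called over all entries. miR-146a-5p, which restrains innate immune signaling, had 166, 202 and 267 CPM in young AL and 254, 301 and 548 CPM in old AL, with 5 of 6 old libraries above all young ones (log2 fold change 0.74, SE 0.194, adjusted p = 0.0652 from edgeR), and was called with known miRNAs alone (adjusted p = 0.0243 from edgeR). miR-21-5p, linked to fibrosis, had 805, 892 and 1394 CPM against 838, 1504 and 2519 CPM (log2 fold change 0.66, SE 0.253, adjusted p = 0.153 from edgeR). Both were highest in old AL replicate 8.

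Rats of 28 months kept on caloric restriction from young adulthood (old CR) gave the called miRNAs a further set of values. In their own comparison with young AL, which shares the young AL libraries, 9.32% of 730 entries were called, and against old AL 0.272% of 736. Some of the 24 were called in old CR against young AL and others, such as miR-376b-5p, miR-22-3p and miR-182, were not, so the miRNAs below are examples. Old CR levels were TMM-scaled over all 18 libraries, so they are not on the scale of the CPM given above. miR-31a-5p had a median of 0.858 CPM in old CR (lowest 0.565, highest 5.74) and a log2 fold change over young AL of 4.62 (adjusted p = 0.00377 from edgeR). miR-539-5p had 0.148, 0.221 and 0.354 CPM (log2 fold change over young AL -1.81, adjusted p = 0.00312), and miR-181d-5p 6.39, 8.94 and 11.4 CPM (log2 fold change over young AL -1.07, adjusted p = 0.00377). miR-140-3p had 227, 253 and 326 CPM, with a log2 fold change of 0.16 over young AL (adjusted p = 0.575) and -0.48 over old AL (adjusted p = 0.392), neither called by edgeR. None of the 24 miRNAs was called between old CR and old AL, and miR-202-5p had too few counts to be tested there.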

How the data were processed

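Small RNA of rat gastrocnemius was sequenced by the authors from NEBNext libraries, adapters were removed with cutadapt 1.2.1 and low-quality ends with Sickle, and known miRNAs were identified and candidates predicted with miRDeep2. Per the labels, the submitters' processing notes name Bowtie2 2.4.0 and Rnor_6.0. Not given in the sources used here were the miRBase release, the strand setting of the counting and how reads with several matching miRNAs were treated. The deposited table holds raw whole-number counts per miRNA and library, without normalization, for 763 known miRNAs and 146 predicted candidates, and 0 of its columns were left unused.

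Groups were taken from the titles. The 12 libraries of old AL and young AL were fitted with edgeR 4.0.16 (limma 3.58.1, R 4.3.3), using TMM factors and the robust quasi-likelihood test, two-sided, on all 732 entries with at least 10 counts in total, with Benjamini-Hochberg adjustment over these. Calls needed a fold of 1.5 or more at an adjusted p of 0.05 or less, the thresholds of the study. The SE is the size of the log2 fold change divided by the square root of F. Log2 CPM used a prior count of 0.5. p-values measure the spread between rats. Reads carried no molecular identifiers, so intervals, and the 3 counts that a count of 0 allows, cover counting error only. Clusters are RefSeq hairpins with gaps of at most 10 kb, and families share bases 2 to 8.

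Named miRNAs are those called, those whose groups do not overlap, the 10 most abundant, the lowest p and highest level of each list, the other arms of called miRNAs and the RT-qPCR reference, of which the text gives the most informative. Members and lists were chosen with earlier results of these data known. The X-linked runs, the Mir34c to Mir34b hairpins, miR-127-3p, miR-379-3p, miR-380-3p, miR-122b, miR-30e-5p, miR-154-3p, miR-665, miR-21-5p, miR-31b, miR-132-3p, miR-181a-5p, miR-181b-5p, miR-183-5p, miR-200b-5p, miR-203b-5p and miR-449a-5p were named after their values were seen where no rule named them. Alternatives were DESeq2 1.42.0, RLE, upper-quartile and total scaling, other filters, known miRNAs alone, shared entries joined, no robust estimation, a fit of all 18 libraries, the adjusted p alone and libraries left out. The fit of known miRNAs with library totals and that without old AL replicates 7 and 8 were added after the counts were seen.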

Additional observations from a re-analysis of the deposited data

Results flagged for a closer look

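Among 66 groups of 6 libraries examined for 33 miRNAs, 9 held a library whose gap to its nearest neighbour, divided by the range of the group in log2 CPM, was above Dixon's 95% critical value, where chance flags about 1 in 20 groups. Old AL replicate 8 was the library in 5 of the 9. It was lowest for miR-434-3p (0.806), for miR-3543, which shares its counts (0.807), for miR-411-5p (0.663) and for miR-539-3p (0.676), all of the Dlk1-Dio3 region, and highest for miR-142-5p (0.813). Young AL replicate 2 was lowest for miR-434-3p (0.695) and miR-3543 (0.687). Old AL replicate 7 was highest for miR-3074 (0.806) and for miR-202-5p (1), where the other old AL libraries were at 0. With those 5 libraries tied at 0, the ratio is 1 for any count in replicate 7, so this flag was fixed in advance.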

How the results depend on the processing

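Of the 24 calls, library totals alone kept 0, with 0 higher and 0 lower and 7 known miRNAs whose groups did not overlap, and known miRNAs with library totals gave 3 calls, 1 higher and 2 lower. DESeq2 called 84 entries (36 higher, 48 lower), filterByExpr 37 (12 higher), known miRNAs alone 53 (19 higher, 34 lower), and the fit over 3 groups had 12 higher. With 1 library left out, edgeR called 9 to 20 miRNAs, 1 to 7 higher and 8 to 17 lower, the lowest without replicate 3 or 12, and without replicates 1 and 2 the number called higher was 4.

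Directions turned only for fitted values near 0 that were not called. miR-24-3p was at 0.0368 under library totals and 0.0259 with known miRNAs alone as well. Without young AL replicates 1 and 2, miR-206-3p was at -0.12 and miR-101a-3p at -0.0352, and without old AL replicates 7 and 8 miR-1-3p was at 0.0356, miR-206-3p at -0.25 and miR-199a-5p at -0.0241. Under filterByExpr miR-206-3p was at -0.00931. With 1 library left out, miR-206-3p ranged from -0.35 to 0.23, miR-133a-3p from -0.00696 to 0.25 and miR-101a-3p from -0.0134 to 0.28. Medians of lists kept their sign under all scalings except those of the miR-148 family, at 0.18, and the miR-23, miR-27 and miR-24 clusters, at 0.08, with library totals. No paired analysis was possible because the groups are different rats with 1 library each. Most called miRNAs lie under 100 CPM, where the counts limit the precision.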
